A study of Mus musculus with 8 samples.

Results

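Acyl-CoA synthetases couple free fatty acids to coenzyme A at the cost of ATP, the step that makes a fatty acid usable by the cell. The acyl-CoA that results can be burned in mitochondria and peroxisomes, built into triglycerides and phospholipids, elongated or desaturated, or joined to glycine for excretion. The ACSL subfamily acts on long-chain fatty acids at the endoplasmic reticulum, the outer mitochondrial membrane and lipid droplets, and the ACSM subfamily acts on medium-chain fatty acids and aromatic acids such as benzoate in the mitochondrial matrix. In liver, where dietary fat and fat made from carbohydrate meet, these enzymes stand at the entry of both lipid storage and lipid oxidation. Here 8 genes of the 2 subfamilies were followed in mouse liver, taken by gene symbol from the 38283 genes of the deposited expression table. They are the 4 ACSL genes Acsl1, Acsl3, Acsl4 and Acsl5 and the 4 ACSM genes Acsm1, Acsm2, Acsm3 and Acsm5.

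The study asked what RORα, a nuclear receptor that binds DNA as a monomer, does for lipid metabolism in hepatocytes of animals on a control diet (CD) and on a high-fat diet (HFD). Livers came from male C57BL/6 mice put on their diet at 8 weeks of age for 10 weeks. All mice carried floxed Rora alleles in which exons 4 to 5 lie between loxP sites, the RORα f/f mice had no Cre, and the RORα LKO mice also carried a Cre transgene under the albumin promoter, which is active in hepatocytes and leaves Rora intact in the other cells of the liver. Poly(A) RNA was sequenced in 8 libraries, 2 for each of the 4 groups (RORα f/f on CD, RORα LKO on CD, RORα f/f on HFD and RORα LKO on HFD), and RNA of 2 mice went into each. Levels are given as FPKM, a fragment count scaled by transcript length and by library size, which allows levels to be compared between genes of different length.

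Rora itself read 8.85 and 8.59 FPKM in the RORα f/f libraries on CD, 7.96 and 8.18 in RORα LKO on CD, 7.56 and 7.86 in RORα f/f on HFD, and 7.3 and 8.02 in RORα LKO on HFD. On HFD the genotypes overlapped, and the value over the whole gene also counts exons outside the deleted part, so it does not check the labels, and the directions between genotypes rest on the labels of the libraries. The libraries summed to between 732622 and 983738 FPKM, and 10587 to 10706 genes lay above 1 FPKM in each. The second RORα f/f CD library stood apart, with 18.7% of its sum in 1 gene listed without a symbol. Of the 8 hepatocyte markers, all but Alb were high in every library, though not all were steady. Apoa1 read between 4407 and 6290 FPKM and Ttr between 3994 and 4541, Cps1, of the urea cycle, ran from 455 to 793, and by diet averaged over genotypes 3 of the 8 passed the adjusted limma threshold described below, beside 9.89% of all genes. Tat, a tyrosine-degrading enzyme, fell by 1.14 (adjusted p 0.0061), Cyp2e1 rose by 0.92 (adjusted p 0.0031; 0.55 without normalization) and the call of Ttr, 0.39, became -0.01 (adjusted p 0.92) without normalization. Alb was listed at 0 in 4 libraries and reached 30888 FPKM in another, so a listed 0 for an abundant gene need not mean absent RNA. None of the 7 tested synthetases was listed at 0 in any library.

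Fold changes come from a limma fit on quantile-normalized log2(FPKM + 1) over the 11634 genes that passed 1 FPKM in at least 1 library, and the adjusted p is the Benjamini-Hochberg value over all of those genes. A gene is said to have risen or fallen where its adjusted p was under 0.05. All members but Acsm2 entered the fit, which leaves 7 tested. Where nothing else is said, values are FPKM, and log2 fold changes are differences on the normalized scale, which understates the change of low genes.

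The DNA just upstream of a RefSeq start of 4 of the genes is shown first. These 4 (Acsl3, Acsl4, Acsl5 and Acsm3) were the members whose level passed the adjusted threshold between diets. They were picked after their values were seen. RORα is known to bind the half-site AGGTCA or GGGTCA with an A/T-rich stretch before it, and PPARα and PPARγ, which switch on many acyl-CoA synthetase genes, bind with their partner RXR to 2 such half-sites spaced by 1 base. Each sequence gives the 250 bases before the start of the gene in RefSeq, 5′ to 3′ on the strand of the gene (GRCm38.p6), with capitals on a half-site in either orientation; the fragments lie at chr1:78657575-78657824 (plus strand), chrX:142390536-142390785 (minus strand), chr19:55253119-55253368 (plus strand) and chr7:119760673-119760922 (plus strand).
Acsl3: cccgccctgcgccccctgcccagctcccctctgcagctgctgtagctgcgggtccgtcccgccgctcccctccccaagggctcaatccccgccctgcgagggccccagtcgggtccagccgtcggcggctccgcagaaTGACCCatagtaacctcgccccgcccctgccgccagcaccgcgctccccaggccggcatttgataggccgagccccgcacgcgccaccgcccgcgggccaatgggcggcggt
Acsl4: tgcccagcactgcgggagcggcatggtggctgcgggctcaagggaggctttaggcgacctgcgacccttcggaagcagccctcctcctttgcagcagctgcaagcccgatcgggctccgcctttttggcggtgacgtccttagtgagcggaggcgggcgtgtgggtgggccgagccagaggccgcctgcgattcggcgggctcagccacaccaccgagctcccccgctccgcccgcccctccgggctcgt
Acsl5: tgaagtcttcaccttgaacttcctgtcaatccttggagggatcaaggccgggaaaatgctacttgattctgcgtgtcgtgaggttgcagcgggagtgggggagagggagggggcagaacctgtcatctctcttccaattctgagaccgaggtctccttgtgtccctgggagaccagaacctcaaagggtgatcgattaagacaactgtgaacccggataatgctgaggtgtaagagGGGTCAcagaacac
Acsm3: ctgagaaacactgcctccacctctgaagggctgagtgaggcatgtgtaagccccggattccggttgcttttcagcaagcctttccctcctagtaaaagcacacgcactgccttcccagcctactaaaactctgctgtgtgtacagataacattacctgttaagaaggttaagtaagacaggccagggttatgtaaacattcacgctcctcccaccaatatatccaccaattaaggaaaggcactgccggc

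In Acsl3 the GGGTCA letters lay on the opposite strand, beginning 112 bases before the RefSeq start. In Acsl5 they lay on the strand of the gene, beginning 14 bases before its RefSeq start. That Acsl5 start lies inside the gene span of the GENCODE annotation (M21), which opens at chr19:55251938. The 50 bases after it open a GENCODE transcript. The Acsl4 and Acsm3 fragments held neither half-site. All 8 members matched RefSeq promoters, in 10 windows of 300 bases (250 before and 50 after a start). Of the 10 windows, 4 held a half-site, those of Acsl3, Acsl5, Acsm1 and Acsm5. In 7 of the 10 the 50 bases after the start opened a GENCODE transcript. The Acsm1 and Acsm5 windows were not among these 7 and lay inside the GENCODE gene spans. Over all 32851 promoter windows of that length AGGTCA was found on either strand in 16.3%, GGGTCA in 13.7% and one or the other in 27.5%. No window of a member held a direct repeat of 2 such half-sites spaced by 1 base (AGGTCANAGGTCA, AGGTCANGGGTCA, GGGTCANAGGTCA or GGGTCANGGGTCA on either strand), which were found in 0.128% of all windows. These are matches of letters and nothing was measured about binding.

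The 8 genes spanned more than 3 orders of magnitude in the liver. Acsl1, a major long-chain synthetase of liver and fat tissue, was the highest in every library, with a mean over the 8 libraries of 485 FPKM and a rank between 123 and 189 among all genes. Acsm1, a mitochondrial ligase of butyrate and other medium-chain acids, came next with a mean of 136, followed by Acsl5 with 75.9, Acsm3 with 57.1 and Acsm5 with 40.8. Acsl4, which prefers arachidonic acid and so supplies polyunsaturated phospholipids, averaged 11.8, and Acsl3, an enzyme of the endoplasmic reticulum and of nascent lipid droplets, averaged 8.35. Acsm2, a gene best known from the kidney tubule, averaged 0.305.

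**Figure D1:**
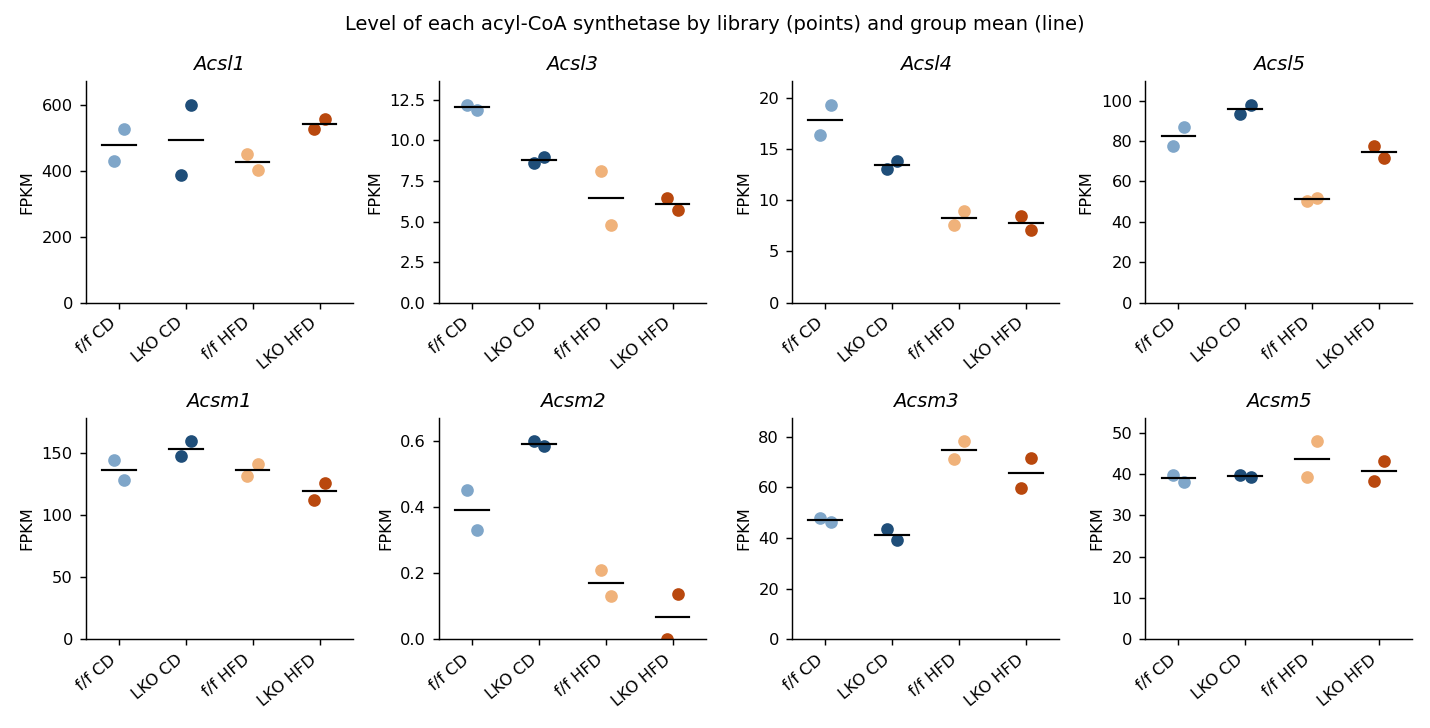
Level of each of the 8 genes in FPKM (vertical axes, each from 0) in the 4 groups (horizontal axes, RORα f/f and RORα LKO on CD or HFD), with 1 point per library and a line at the mean of 2. Acsl3, Acsl4 and Acsl5 lie lower on HFD and Acsm3 higher within each genotype, while Acsl1, Acsm1 and Acsm5 overlap between diets in at least 1 genotype.

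The ACSM genes of this set sit together on chromosome 7 (GRCm38, GENCODE M21), Acsm5 at chr7:119519463-119545551, Acsm2 at chr7:119554340-119600690, Acsm1 at chr7:119607026-119662515 and Acsm3 at chr7:119760923-119787513, all on the plus strand. The ACSL genes are dispersed, with Acsl1 at chr8:46471037-46536051, Acsl3 at chr1:78657825-78707743 and Acsl5 at chr19:55251938-55297720 on the plus strand and Acsl4 at chrX:142317993-142390535 on the minus strand. Acsl4 and Acsm1 shared no run of 50 transcript bases with any other gene, in either orientation. The share of such runs found in other genes was 34% for Acsm3, 9.23% for Acsl1, 4.78% for Acsl5 and 3.59% for Acsl3. It was 1.58% for Acsm5 and 0.576% for Acsm2. Whether any of those genes was another member was not recorded. The kit did not mark strand, and 4 members overlap exons of another gene of known level. For Acsm3 this is large, 1962 of its exonic bases or 39.7% with the antisense gene Eri2, an exonuclease gene. For Acsl5 it was 8.31% with the antisense gene Zdhhc6, for Acsl3 5.6% with Utp14b and for Acsm5 2.74% with Pdilt. Acsl1 overlaps Gm45244 over 9.91%, and no level was matched to that gene.

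The clearest differences were between diets. Averaged over both genotypes, in the HFD libraries Acsl4, Acsl3 and Acsl5 fell and Acsm3 rose, while Acsl1 and Acsm1, the most abundant genes of the set, and Acsm5 did not pass the test. On the normalized scale of FPKM + 1, Acsl4 had the largest fall of the 7, to 0.556 times its CD level. Acsm3 stood at 1.64 times its CD level on that scale. Of the 7 tested members, 4 passed the adjusted threshold for diet averaged over the genotypes, beside 9.89% of all genes tested, and the same 4 had libraries that did not overlap between diets, beside 16.5% (3 lower beside 10.3% and 1 higher beside 6.21%). In bulk liver, fewer cells of a type and less RNA per cell cannot be told apart, which holds for every difference given here.

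Acsl4 read 16.4 and 19.3 FPKM in RORα f/f on CD and 7.57 and 8.94 in RORα f/f on HFD. In RORα LKO it read 13 and 13.8 on CD and 8.49 and 7.05 on HFD. All 4 CD libraries lay above all 4 HFD libraries. The log2 fold change of HFD against CD, averaged over genotypes, was -0.85 (SE 0.09, limma adjusted p 0.0061), with -1.0 (SE 0.13, adjusted p 0.037) in RORα f/f and -0.70 (SE 0.13, adjusted p 0.047) in RORα LKO. Leaving out any 1 library kept the averaged call, with values from -0.91 to -0.78, whereas the call within RORα f/f and that within RORα LKO were each lost when any 1 of the 8 libraries was left out.

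Acsl3 read 12.2 and 11.9 in RORα f/f on CD, 8.63 and 8.96 in RORα LKO on CD, 8.11 and 4.79 in RORα f/f on HFD, and 6.47 and 5.74 in RORα LKO on HFD. The highest HFD library, the first of RORα f/f, lay just under the lowest CD library. The averaged log2 fold change was -0.62 (SE 0.13, limma adjusted p 0.035), and this call was lost in 6 of the 8 fits that left out 1 library, with values from -0.78 to -0.47, and when genes of any level above 0 were admitted (adjusted p 0.078). Within a genotype the values were -0.81 (adjusted p 0.092) in RORα f/f and -0.43 (adjusted p 0.25) in RORα LKO.

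Acsl5, an enzyme of mitochondria and endoplasmic reticulum with high levels in intestine and liver, read 77.6 and 87 in RORα f/f on CD and 50.4 and 52 on HFD, and 93.5 and 97.9 in RORα LKO on CD and 77.6 and 71.5 on HFD. No 2 groups adjacent in level overlapped, although the lowest RORα f/f library on CD and the highest RORα LKO library on HFD both round to 77.6. The averaged log2 fold change of diet was -0.44 (SE 0.06, limma adjusted p 0.012), kept in every fit that left out 1 library, with values from -0.49 to -0.39. Within RORα f/f it was -0.62 (SE 0.09, adjusted p 0.038), a call lost when any 1 library was left out, and within RORα LKO it was -0.26 (SE 0.09, adjusted p 0.17). The overlapping antisense gene Zdhhc6 stayed between 30.9 and 36.4 FPKM and had a diet difference of -0.00.

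Acsl1 read 431 and 526 in RORα f/f on CD, 386 and 600.1 in RORα LKO on CD, 451 and 403 in RORα f/f on HFD, and 528 and 558 in RORα LKO on HFD. The 2 RORα LKO CD libraries lay farther apart than any pair of group means. The averaged log2 fold change of diet was 0.15 (SE 0.16, limma adjusted p 0.61), or 0.01 without normalization.

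In the mitochondrial subfamily, Acsm3, a gene first found through its expression in hypertensive rats, read 47.7 and 46.3 in RORα f/f on CD, 43.5 and 39.2 in RORα LKO on CD, 71.2 and 78.1 in RORα f/f on HFD, and 59.7 and 71.6 in RORα LKO on HFD. Every HFD library lay above every CD library. The averaged log2 fold change was 0.71 (SE 0.07, limma adjusted p 0.005), with 0.72 (adjusted p 0.038) in RORα f/f and 0.71 (adjusted p 0.025) in RORα LKO. Leaving out 1 library kept the averaged call each time (0.66 to 0.77), but the call within RORα f/f was lost in all 8 such fits and that within RORα LKO in 7 of 8.

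Eri2, whose exons overlap 39.7% of the exonic bases of Acsm3 on the other strand, read 9.09 and 7.64, 7.53 and 6.27, 11.6 and 12.2, and 11 and 12.3 in the same order of groups. It rose with HFD too, by 0.61 (SE 0.08, limma adjusted p 0.0088). Reads of the 2 genes cannot be told apart where they overlap, and the part of either in the value of the other was not tested.

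Acsm1 read 144 and 128 in RORα f/f on CD, 147 and 159 in RORα LKO on CD, 131 and 141 in RORα f/f on HFD, and 112 and 126 in RORα LKO on HFD. Its averaged diet difference was -0.11 (SE 0.06, limma adjusted p 0.24). Acsm5 stayed between 38.1 and 47.9 in all 8 libraries, with a difference of 0.12 (SE 0.07, adjusted p 0.33). Acsm2 read 0.452 and 0.329, 0.598 and 0.583, 0.209 and 0.132, and 0 and 0.137 in the same order of groups, so each CD library lay above each HFD library at levels under the filter of 1 FPKM, where no test was made.

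Within RORα f/f, 3 of the 7 tested members passed the adjusted threshold for diet (Acsl4, Acsl5 and Acsm3), beside 1.33% of all genes tested, and within RORα LKO 2 did (Acsl4 and Acsm3), beside 3.02%. The median size of the diet difference in RORα f/f was 0.62 over the 7 members and 0.14 over all genes, and averaged over genotypes 0.44 and 0.12.

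**Figure D2:**
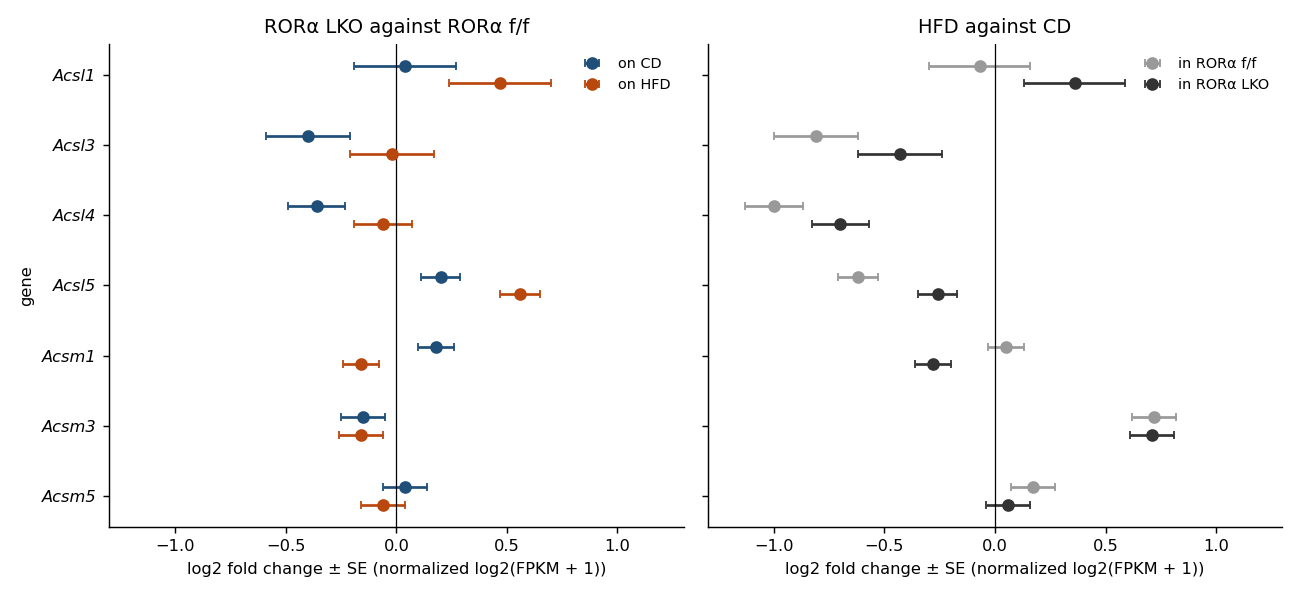
Log2 fold change with its standard error (horizontal axis, normalized log2(FPKM + 1)) of the 7 tested genes (vertical axis), for RORα LKO against RORα f/f on each diet (left) and for HFD against CD in each genotype (right). Diet differences reach -1.0 for Acsl4 and 0.72 for Acsm3, and the largest genotype difference is that of Acsl5 on HFD, 0.56.

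Between genotypes no member passed the adjusted threshold on either diet. On HFD, Acsl5 had the largest difference, 1.47-fold higher in RORα LKO on the normalized scale. Acsl1 was 1.38-fold higher on that scale without passing the test. Its mean FPKM was 427 in RORα f/f and 543 in RORα LKO. On CD the largest differences were lower values of Acsl3 and Acsl4 in RORα LKO. At an unadjusted p under 0.05, 1 of 7 members was called on HFD (Acsl5) and 1 on CD (Acsl4), beside 9.58% and 12.3% of all genes tested. At the adjusted threshold 0 of 7 were called on either diet, beside 0.043% of all genes on HFD and 0.0172% on CD.

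On HFD, Acsl5 read 50.4 and 52 in RORα f/f against 77.6 and 71.5 in RORα LKO, a log2 difference of 0.56 (SE 0.09, limma adjusted p 0.14) that lay between 0.49 and 0.63 when 1 library was left out. On CD it read 77.6 and 87 against 93.5 and 97.9, a difference of 0.20 (SE 0.09, adjusted p 0.43). RORα LKO libraries were higher on both diets, and the averaged difference of 0.38 (SE 0.06) had an adjusted p of 0.098, the lowest of any member for genotype. It was the 1 of 7 members called at the unadjusted level for this average, beside 13.5% of all genes, and 0 of 7 passed the adjusted threshold, beside 0.103%. The comparisons of genotype on HFD and of diet in RORα f/f share the low RORα f/f HFD libraries. The difference of the genotype effect between diets was 0.36 (SE 0.13, adjusted p 0.56).

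Acsl1 on HFD read 451 and 403 in RORα f/f against 528 and 558 in RORα LKO. The libraries did not overlap, and the log2 difference was 0.47 (SE 0.23, limma adjusted p 0.59), or 0.35 without normalization. On CD, where 386 and 600.1 in RORα LKO enclosed both RORα f/f values, the difference was 0.04 (SE 0.23, adjusted p 0.96) and ranged from -0.33 without the second RORα LKO CD library to 0.39 without the first.

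Acsl4 on CD read 16.4 and 19.3 in RORα f/f against 13 and 13.8 in RORα LKO, a log2 difference of -0.36 (SE 0.13, limma adjusted p 0.35), and on HFD the genotypes overlapped, with -0.06 (SE 0.13, adjusted p 0.92). Acsl3 likewise was lower in RORα LKO on CD, 8.63 and 8.96 against 12.2 and 11.9 (-0.40, SE 0.19, adjusted p 0.45), and overlapped on HFD (-0.02, SE 0.19, adjusted p 0.99). The change of the genotype effect between diets was 0.30 (adjusted p 0.69) for Acsl4 and 0.38 (adjusted p 0.72) for Acsl3.

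Acsm1 was the only member with opposite directions of the non-overlapping libraries on the 2 diets. It was higher in RORα LKO on CD, 147 and 159 against 144 and 128 (0.18, SE 0.08, limma adjusted p 0.42), and lower on HFD, 112 and 126 against 131 and 141 (-0.16, SE 0.08, adjusted p 0.6). The difference between these effects was -0.34 (SE 0.11, adjusted p 0.56). Acsm3 was lower in RORα LKO by 0.15 on CD and by 0.16 on HFD, overlapping on HFD, with adjusted p 0.57 and 0.66, and Acsm5 differed by 0.04 and -0.06.

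Non-overlap of the libraries of 2 groups of 2 is common in this table. On HFD, 2 members were higher and 1 lower in RORα LKO without overlap, beside 42.1% of all genes tested (19.1% higher and 23% lower). On CD 2 were higher and 3 lower, beside 43.3% (20.8% higher and 22.6% lower). The change of the genotype effect was called at the unadjusted level for 2 members, Acsl5 and Acsm1, beside 8.35% of all genes, and for none at the adjusted level, beside 0.0344%. The smallest p that an exact test of 2 against 2 libraries can give is 0.333, so the calls rest on the spread pooled over the 4 groups.

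The make-up of the subfamilies was described by shares, without a test. Acsl1 gave 77% to 83.3% of the summed FPKM of the 4 ACSL genes on CD and 85.1% to 87.2% on HFD, so that the 2 diets did not overlap. The summed ACSL level itself ranged from 468 to 721 FPKM and overlapped between diets. Acsl5 gave 13.5% to 18.6% of it on CD and 9.74% to 12.5% on HFD. Acsl4 gave 1.92% to 3.05% on CD and 1.1% to 1.91% on HFD. The Acsl3 share, 1.24% to 2.27% on CD and 0.894% to 1.57% on HFD, overlapped between diets.

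Among the ACSM genes the order of shares stayed Acsm1, then Acsm3, then Acsm5, but Acsm3 and Acsm1 came closer on HFD. Acsm1 gave 60.3% to 66.8% of the summed FPKM on CD and 52.2% to 54.3% on HFD, and Acsm3 gave 16.4% to 21.7% on CD and 28.4% to 29.8% on HFD. The ratio of Acsm1 to Acsm3 was 3.01 and 2.77 in RORα f/f on CD, 3.37 and 4.06 in RORα LKO on CD, 1.84 and 1.81 in RORα f/f on HFD, and 1.87 and 1.75 in RORα LKO on HFD. All HFD libraries lay below all CD libraries, and within HFD the genotypes overlapped.

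**Figure D3:**
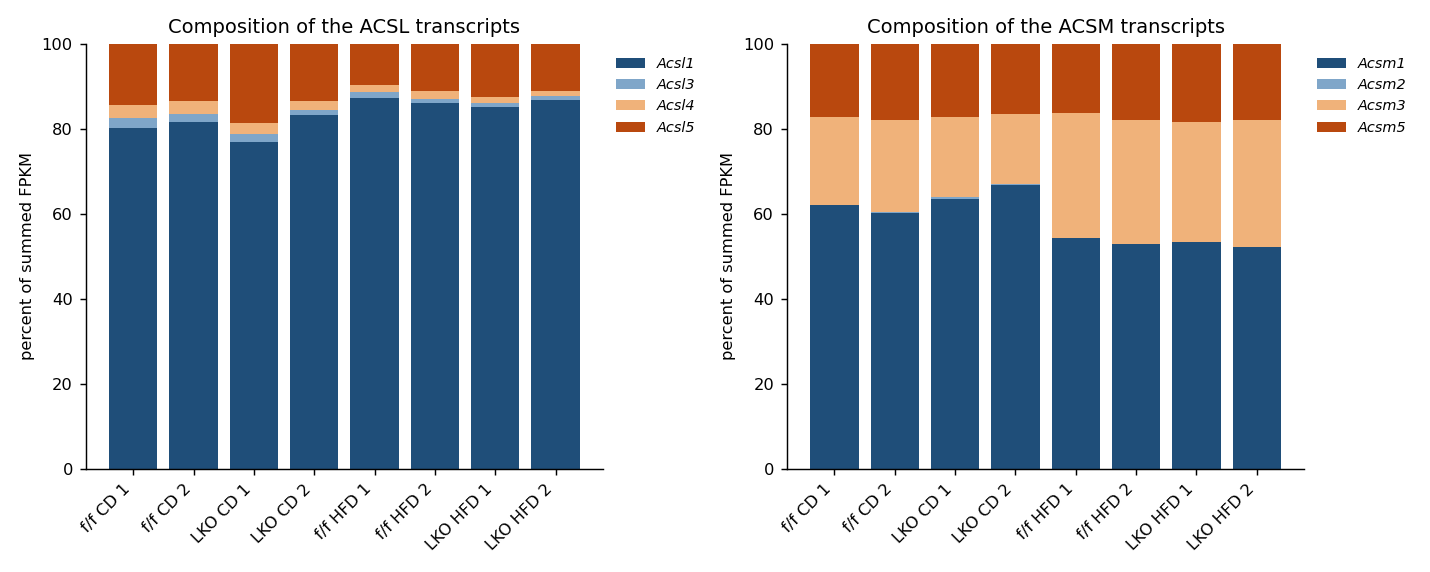
Share of each gene in the summed FPKM of the 4 ACSL genes (left) and of the 4 ACSM genes (right), as stacked bars in percent (vertical axes) for each of the 8 libraries (horizontal axes). The share of Acsl1 is 77% to 83.3% on CD and 85.1% to 87.2% on HFD, and that of Acsm3 is 16.4% to 21.7% on CD and 28.4% to 29.8% on HFD.

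Of 17 other acyl-CoA synthetase genes in the table, 11 passed the filter. The 6 that did not (Acsl6, Acsbg1, Acsbg2, Acsm4, Acss1 and Slc27a6) had FPKM of at most 0.157 in any library. Between genotypes on HFD 4 of the 11 were higher in RORα LKO at an unadjusted p under 0.05 and 0 were lower, beside 5.46% and 4.12% of all genes. On CD 0 of 11 were called, where 6.15% of all genes were higher and 6.12% lower. None passed the adjusted threshold on HFD.

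The 4 on HFD were Acss3, a mitochondrial ligase of short-chain acids such as propionate, Slc27a1 and the mitochondrial Acsf2 and Acsf3. Acss3 read 6.61 and 7.05 in RORα f/f and 11.8 and 10.4 in RORα LKO on HFD (0.65, SE 0.13, limma adjusted p 0.23). Slc27a1, a fatty acid transport protein with synthetase activity, read 4.54 and 4 against 6.21 and 7.82 (0.61, SE 0.14, adjusted p 0.25). For Acsf2 and Acsf3, which makes malonyl-CoA in mitochondria, the difference was 0.28 each, with adjusted p 0.27 and 0.47.

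With diet, averaged over genotypes, 3 of the 11 passed the adjusted threshold, beside 9.89% of all genes, named here after their values were seen. Acss2, the cytosolic acetate ligase that feeds fatty acid synthesis, fell from 40.9, 48, 53.9 and 55 on CD to 24.4, 27.6, 31.7 and 25.9 on HFD (-0.78, SE 0.09, limma adjusted p 0.0075). Acss3 rose by 0.74 (adjusted p 0.0081). Slc27a2, a very long-chain synthetase and the most abundant of the 11 at 686 to 1029 FPKM, rose by 0.45 with an adjusted p that rounds to 0.05, a call lost in 7 of the 8 fits that left out 1 library and without normalization (0.22, adjusted p 0.22).

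**Figure D4:**
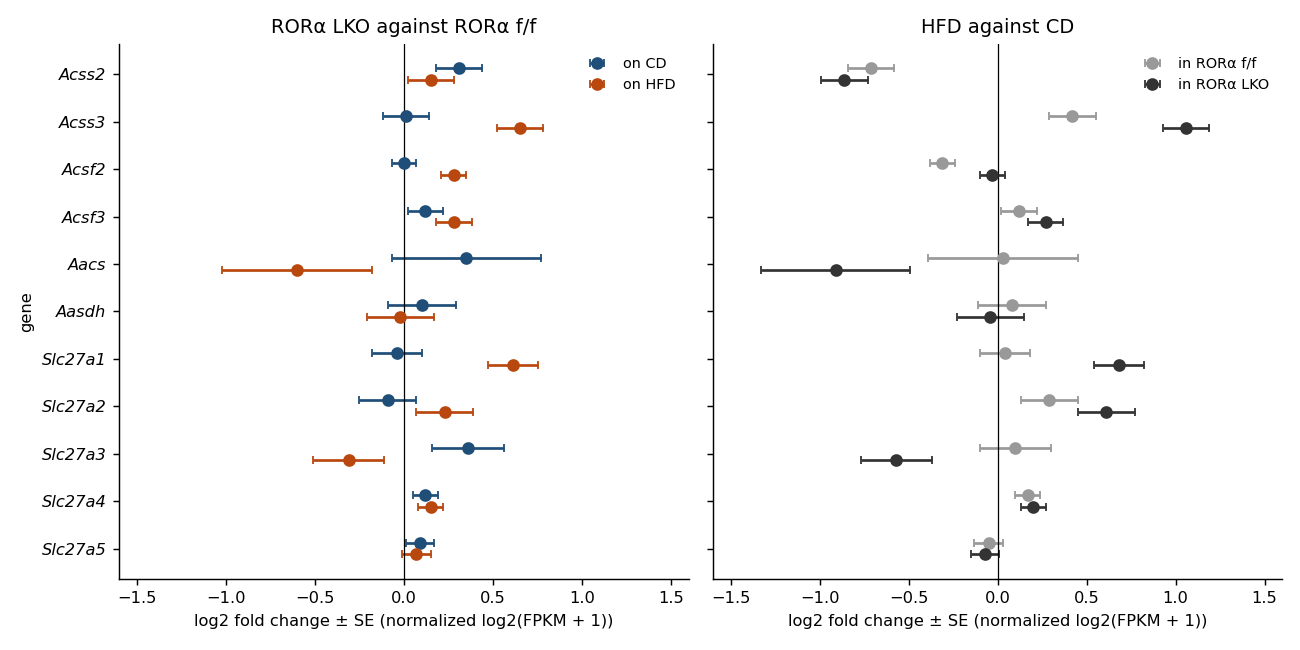
Log2 fold change with its standard error (horizontal axis, normalized log2(FPKM + 1)) of the 11 other acyl-CoA synthetase genes that passed the filter (vertical axis), by genotype on each diet (left) and by diet in each genotype (right). Acss3 and Slc27a1 lie at 0.65 and 0.61 by genotype on HFD and near 0 on CD, and Acss2 lies lower on HFD in both genotypes.

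The genes around the synthetases were read in lists of the steps that make, use and control acyl-CoA. Acyl-CoA oxidation in mitochondria (22 genes tested) had 9 genes higher and 0 lower in RORα LKO on HFD at an unadjusted p under 0.05, beside 5.46% and 4.12% of all genes, 3 higher and 0 lower on CD, beside 6.15% and 6.12%, and none past the adjusted threshold on either diet. The median log2 difference on HFD was 0.19, beside -0.00 over all genes. Cpt1b, a low-level isoform of the enzyme that loads long-chain acyl groups onto carnitine, had the largest difference, with 1.72 and 1.92 in RORα f/f and 3.72 and 6.52 in RORα LKO (1.09, SE 0.29, limma adjusted p 0.32). The far more abundant isoform Cpt1a, at 139.8 to 190.4 FPKM over the libraries, had 0.02 (adjusted p 0.97). Crat, the carnitine acetyltransferase, had the second largest difference of the list, 0.88 (adjusted p 0.23). With diet averaged over genotypes, 9 of 22 passed the adjusted threshold, beside 9.89% of all genes. Acadm, the medium-chain acyl-CoA dehydrogenase, rose by 0.64 (adjusted p 0.0081) and Acadl, the long-chain dehydrogenase, by 0.43 (adjusted p 0.0059).

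Peroxisomal oxidation (17 genes) had 8 higher and 1 lower in RORα LKO on HFD (5.46% and 4.12% of all genes) and 2 higher and 0 lower on CD (6.15% and 6.12%), again with none past the adjusted threshold. The largest on HFD were Abcd2, a peroxisomal transporter of very long-chain acyl-CoA (0.78, limma adjusted p 0.33), Ehhadh (0.77, adjusted p 0.45) and Acaa1b (0.68, adjusted p 0.37), both enzymes of peroxisomal oxidation. Thioesterases and acyl-CoA binding proteins (18 genes) had 4 higher and 2 lower on HFD, beside the same 5.46% and 4.12%. They had 0 higher and 0 lower on CD, beside 6.15% and 6.12%. Among them Acot2, a mitochondrial thioesterase, had 0.77 (adjusted p 0.37) and Dbi, the main acyl-CoA binding protein, had 0.41 (adjusted p 0.39), while Nudt7, a peroxisomal CoA hydrolase, had -0.42 (adjusted p 0.43).

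Glycerolipid synthesis (17 genes tested) held the only adjusted calls of these lists between genotypes. They were 1 of 17 on each diet, beside 0.043% of all genes on HFD and 0.0172% on CD. Lpin1, which makes diacylglycerol from phosphatidate and also acts in the nucleus, read 68.5 and 77.3 in RORα f/f and 17.5 and 18.8 in RORα LKO on CD, and 68.8 and 77.4 against 27.6 and 34.2 on HFD. It fell in RORα LKO by 1.91 on CD (limma adjusted p 0.0063) and by 1.22 on HFD (adjusted p 0.046). The call on CD was kept in all 8 fits that left out 1 library, and that on HFD was lost in 7 of the 8, with values from -1.36 to -1.09, and without normalization (adjusted p 0.051). In the same list on HFD, Mogat1, a monoacylglycerol acyltransferase, was higher by 0.84 (adjusted p 0.24) and Gpat3 by 0.49 (adjusted p 0.47), and Dgat2, the last enzyme of triglyceride synthesis, had -0.30 (adjusted p 0.23). At the unadjusted level the list had 4 higher and 2 lower on HFD (5.46% and 4.12% of all genes) and 3 higher and 2 lower on CD (6.15% and 6.12%).

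Genes of fatty acid synthesis, elongation and desaturation (16 tested) lay mostly lower on HFD. At the unadjusted level 11 of 16 were lower and 0 higher, averaged over genotypes, beside 13% and 14.9% of all genes. The adjusted threshold was passed by 5 of 16, beside 9.89% of all genes. Fasn, the fatty acid synthase, fell by 1.35 (limma adjusted p 0.0063) and Elovl6, the elongase of palmitate, by 1.71 (adjusted p 0.0095), the same direction as Acsl3, Acsl4, Acsl5 and Acss2 had. Between genotypes on HFD 4 genes of this list were higher and 0 lower, beside 5.46% and 4.12% of all genes, led by Elovl5 (1.00, adjusted p 0.24), an elongase of polyunsaturated fatty acids, and Elovl3 (0.89, adjusted p 0.27).

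For the lists that follow, the shares over all genes on HFD between genotypes are 5.46% higher and 4.12% lower at the unadjusted level. Genes of coenzyme A synthesis (8 tested) had 1 higher and 0 lower, Pank1, the kinase of the first step, with 0.25 (limma adjusted p 0.43). A list of glycine and bile acid conjugation with other genes of glycine metabolism (6 tested) had 1 higher and 2 lower. The higher gene was Gldc, which breaks down glycine, with 0.65 (adjusted p 0.33). The lower ones were Keg1, a glycine acyltransferase relative, with -0.69 (adjusted p 0.31), and Gamt, of creatine synthesis, with -0.17 (adjusted p 0.49). The conjugating enzymes Glyat (0.16, adjusted p 0.63) and Baat (-0.02, adjusted p 0.96) were not called. Of 19 receptors and coregulators that act on synthetase genes, 1 was higher, a share near that of all genes, and 4 were lower. Pparg read 4.22 and 4.46 in RORα f/f and 5.86 and 6.38 in RORα LKO on HFD (0.42, adjusted p 0.23), and Srebf1, the regulator of lipogenic genes, had -0.41 on HFD (adjusted p 0.38) and 0.68 on CD (adjusted p 0.2).

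The 3 genes whose pattern over the 8 libraries was most like that of each member, by Pearson r among 9839 genes with FPKM above 1 in every library, are given as a description; libraries, diet and genotype are shared by every pair. For Acsl1 these were Acot1, an acyl-CoA thioesterase, with r 0.952, Chrna2 with 0.947 and Hsdl2 with 0.945. For Acsl5 they were 1700020I14Rik with 0.982, Cyb5r3 with 0.981 and Cmc4 with 0.973. For Acsl4 they were Acrbp with 0.994, Lrrc28 with 0.992 and Ercc5 with 0.986, and for Acsl3 Ube3a with 0.976, Zbtb20 with 0.974 and Gramd3 with 0.958.

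For Acsm3 they were Gstz1 with 0.982, Sult1b1 with 0.98 and Msl2 with 0.975, and for Acsm1 Rnh1 with 0.977, Gpr180 with 0.972 and Aprt with 0.963. Acsm5, which differed little between groups, had Zbtb24 with 0.935, Foxa2 with 0.92 and Dap with 0.917. Among the members themselves the r of Acsl3 with Acsl4 was 0.83, that of Acsm3 with Acsl4 was -0.853 and that of Acsl1 with Acsl5 was 0.262.

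Markers of other cells were read beside these results. The 7 stellate cell markers summed to 43 to 67.1 FPKM in CD and 77.4 to 106 in HFD libraries, and 3 of 7 (Dcn, Reln and Rgs5) passed the adjusted threshold for diet, beside 9.89% of all genes, in the direction of Acsm3 and against Acsl3, Acsl4 and Acsl5. Leaving out 1 library lost the calls of Dcn and Reln in 6 of 8 fits each. Dcn made up most of the sum, and the collagens Col1a1 and Col3a1 differed by -0.13 and -0.14 and did not pass. The 9 Kupffer cell and macrophage markers summed to 103 to 141 on CD and 82.2 to 149.5 on HFD, with 0 of 9 past the adjusted threshold for diet. On HFD 3 of these 9 (Clec4f, Cd68 and Timd4) were higher in RORα LKO at the unadjusted level, as Acsl5 was, beside 5.46% of all genes.

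Of the 7 adipocyte markers, Car3, which hepatocytes also express, made up most of the sum and was 1054 and 825 in RORα f/f against 1412 and 1746 in RORα LKO on HFD. The defining markers Adipoq, Lep and Plin1 stayed at or under 0.377 and were listed at 0 in at least 5 libraries each. Cfd was 0.488 and 1.87 against 5.45 and 5.29. Fabp4, at 6.45 to 10.4 FPKM, differed by 0.12 between genotypes on HFD (limma adjusted p 0.78). Of the 3 adipocyte markers tested, 2 (Car3 and Cfd) were higher in RORα LKO on HFD at the unadjusted level, beside 5.46% of all genes. None passed the adjusted threshold there (0.11 for Car3 and 0.33 for Cfd). For averaged diet 1 of 3 passed it, Fabp4 (0.37, adjusted p 0.033), beside 9.89% of all genes. The 4 red blood cell markers summed to 78.4 to 414 on CD and 56.7 to 193 on HFD, and the RORα LKO CD libraries (204 and 414) lay above all 4 HFD libraries. The RORα f/f libraries overlapped between diets, with 78.4 and 336 on CD and 56.7 and 193 on HFD. Of these 4 markers 1 passed the adjusted threshold for diet, beside 9.89% of all genes. It was Alas2, an enzyme of heme synthesis in red cell precursors, which fell on HFD, from 39.3 to 51.4 on CD to 25.8 to 33.6 (-0.56, limma adjusted p 0.0094), the direction of Acsl3, Acsl4 and Acsl5. Of the 6 endothelial cell markers 1 passed the adjusted threshold for averaged diet, higher on HFD, beside 9.89% of all genes. The 1 pancreas marker tested, Cela1, passed it for genotype averaged over diets, beside 0.103% of all genes. It was lower in RORα LKO by 1.00. The other 3 pancreas markers were listed at 0 in all libraries. The part of all these cells in the values of the synthetases was not tested.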

How the data were processed

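Liver RNA was measured in 8 libraries of 4 groups. Per the labels and the study's methods, the authors trimmed reads with cutadapt (1.0), aligned them to GRCm38 with TopHat2 (2.0.7) and deposited FPKM per gene from Cufflinks, whose version is not given in the sources used here. The table holds no read counts, so depth per library was not computed and no counting interval is given. Members were found by symbol, with positions and overlaps from GENCODE M21 and promoters from RefSeq (GRCm38.p6).

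The 11634 of 38283 genes that passed 1 FPKM in at least 1 library were taken as log2(FPKM + 1), quantile-normalized and fitted with limma (3.58.1, R 4.3.3) as 4 group means with a mean-variance trend, giving 7 comparisons with Benjamini-Hochberg adjustment over all of those genes. The fit had 4 residual degrees of freedom and 2.8 from the prior. The study's permutation procedure was not rebuilt. On simulated data of this size for RORα LKO against RORα f/f on HFD (11634 genes, 200 changed), the test recovered 83% of genes changed by a log2 of 1 and 100% of those changed by 2, with 7 of 190 calls on unchanged genes. The changed genes were drawn from those with a mean normalized log2 level above 2, and the noise was independent and normal. Changes under 1, such as every genotype difference of the members, were not simulated.

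The members and gene lists were chosen with earlier results of these data known. The genes named are the 8 members, of each list at most 6 genes per genotype comparison with an unadjusted p under 0.05 and the largest differences, the 3 genes most alike each member, and Rora. Genes named for diet were picked after their values were seen. Alternatives were no normalization, centring on the median, a pseudocount of 0.1, other filters, the replicate number as a block, no trend, only the libraries compared and each library left out. No protein sequence was used here.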

Additional observations from a re-analysis of the deposited data

How the results depend on the processing

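The averaged diet calls of Acsl4, Acsl5 and Acsm3 held under every alternative run, and no alternative gave a member an adjusted call between genotypes on a single diet. The single-genotype diet calls did not hold so: with the replicate number as a block the adjusted p in RORα f/f became 0.055 for Acsl4, 0.064 for Acsl5 and 0.063 for Acsm3 and in RORα LKO 0.074 for Acsl4, and over all genes the calls in RORα f/f went from 155 to 34 with the block, 42 without the trend, 46 with genes above 0 FPKM, 5 with only the libraries compared, 323 with FPKM above 1 in all libraries and 297 without genes listed at 0, the last chosen after seeing the data. The labels give the replicates only a number, and over all genes the deviations of same-numbered libraries correlated between -0.00371 and 0.149. Whether same-numbered libraries shared a processing step, for all or some genes or groups, was not tested.

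Members called at the unadjusted level on HFD between genotypes were 2, not 1, with only the libraries compared, beside 1180 of 11634 genes. On CD they were 2, not 1, with no normalization (beside 1463 of 11634 genes), centring (1446 of 11634), genes above 0 (1992 of 20816) or only the libraries compared (1221 of 11634). Averaged over diets they were 3 with no normalization (1594 of 11634) or centring (1581 of 11634). They were 2 with FPKM above 1 in all libraries (1482 of 9839) or without genes listed at 0 (1642 of 11301). In the reported fit the calls over all 11634 genes were 1114 on HFD, 1428 on CD and 1568 averaged over diets. The median member difference became 0.14 (from 0.30) for the change of the genotype effect and -0.26 (from -0.11) for averaged diet with genes above 0, which admits Acsm2, and -0.36 (from -0.26) for diet in RORα LKO with no normalization. Acsm1 averaged over diets turned from 0.01 to -0.02 with no normalization and -0.01 with centring. Rescaling FPKM to the same total kept the order of the group means for 4 of the 8 members.

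With 1 library left out at a time, the number of members called at the unadjusted level changed for every genotype comparison. The median member difference ranged from -0.18 to 0.07 on HFD, from -0.12 to 0.04 on CD, from 0.07 to 0.39 for the change of effect and from -0.22 to 0.01 for diet in RORα f/f. Differences that changed sign were none of the adjusted calls. On HFD between genotypes they were Acsl3 (-0.33 without the second RORα f/f HFD library to 0.29 without the first), Acsl4 (-0.19 to 0.07) and Acsm5 (-0.21 to 0.07), and on CD Acsl1 (-0.33 to 0.39). For the change of effect they were Acsm3 (-0.12 to 0.11) and Acsm5 (-0.25 to 0.03). For diet they were Acsl1 (-0.22 to 0.08 in RORα f/f, -0.01 to 0.74 in RORα LKO, -0.04 to 0.34 averaged) and Acsm1 in RORα f/f (-0.01 to 0.11), and for genotype averaged over diets Acsm1 (-0.02 to 0.04) and Acsm5 (-0.08 to 0.06).

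Over all genes, adjusted calls also moved for diet in RORα LKO (351 in the reported fit, 0 to 570 over the alternatives that kept all libraries), for averaged diet (1151, 704 to 1331), between genotypes on HFD (5, 4 to 24), on CD (2, 0 to 10), averaged over diets (12, 7 to 50) and for the change of effect (4, 0 to 19). With FPKM only and 2 libraries a group, differences between genotypes of the size measured here for Acsl1, 0.47 with an SE of 0.23, could not be told from 0.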
